A study of Mus musculus with 8 samples.

Results

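Gata4, Gata5, Gata6, Zfpm1, Onecut1, Onecut2 and Onecut3 are the 7 genes described here, out of the 53801 genes of the count table. They are the GATA transcription factors of gut endoderm, the cofactor Zfpm1 that binds GATA factors, and the Onecut transcription factors. They were picked by gene symbol after the difference between the genotypes in these same libraries was known, so that difference is given as a description. Whether a member passed the cutoffs of the fit over all genes is stated with its values, and it supports nothing about the members. Of the 7 genes, 6 had at least 1 count in some library and 5 passed the filter on low counts.

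GATA factors bind DNA at a GATA core through a pair of zinc fingers, and in the intestinal epithelium they help to set the position along the gut. Gata4 is known from the proximal small intestine and is lost towards the ileum, where bile acid genes are used, while Gata6 is present along the whole length. Zfpm1 (Fog1) docks on the amino-terminal finger and brings in corepressors such as the NuRD complex, and Onecut factors combine a cut domain with a homeodomain and are known from liver, pancreas and endocrine cells.

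The RNA came from Paneth cells, the antimicrobial secretory cells at the base of small intestinal crypts, sorted from mice as viable EpCAM+ CD24+ cells after a CD45 stain. All animals carried a gain-of-function allele of β-catenin (β-cat GOF) according to the series design and the study's results, although the methods paragraph on sorting names littermates without it. The 4 controls were Mll1+/- (labelled het) and the 4 knockouts Mll1-/- (labelled hom). Recombination was driven by the tamoxifen-inducible Cre of the Lgr5-EGFP-IRES-CreERT2 allele, which is active in stem cells and is known to work in a mosaic pattern. Tamoxifen was injected on 3 consecutive days at 1 mg, and cells were sorted on day 10 after induction. The labels give no age, and the methods describe mice that were a few weeks old at induction. Each library has its own label, and 1 animal number stands on control 4 and knockout 4.

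The 8 libraries held between 13037832 and 14380240 counts. Knockout 3 stood apart: counts fell on 19662 genes there, against 22623 to 26074 in the other libraries, and 88.1% of its counts came from its 50 most abundant genes. The sum of 10 Paneth markers was between 303000 and 965000 normalized CPM (counts per library, scaled to a common size), the highest value being that of knockout 3. The scaling multiplies each library total by a normalization factor (TMM), 0.632 for knockout 3 and 0.822 to 1.336 for the others. These sums are therefore not shares of the counts, and part of their spread comes from the factors. The targeted gene, Mll1 (Kmt2a), was at 45.1, 37.2, 24.1 and 22.4 normalized CPM in controls 1 to 4 and at 31.1, 25.7, 38.5 and 28.4 in knockouts 1 to 4. These ranges overlapped, with a log2 fold change of -0.06 ± 0.24 (standard error). Counts over the whole gene pool a floxed segment with the other exons, so they do not check the genotype labels.

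The zinc fingers show how alike the GATA genes are at the level of the bases that reads must tell apart, and they are shown for that reason. A search of the GENCODE M21 transcripts (GRCm38) for a reading frame with cysteines spaced as in a GATA finger found 2 fingers of 75 bases in each of Gata4, Gata5 and Gata6. In Gata4 the first lies in exon 3 at chr14:63204649-63204723 and the second in exon 4 at chr14:63203683-63203757, both on the minus strand. In Gata5 the first lies in exon 2 at chr2:180332356-180332430 and the second in exon 3 at chr2:180328331-180328405, also on the minus strand. Capitals mark the codons of the zinc-binding cysteines, and each sequence runs 5′ to 3′ along the mRNA.
Gata4 finger 1: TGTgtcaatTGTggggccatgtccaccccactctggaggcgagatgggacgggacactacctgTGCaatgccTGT
Gata5 finger 1: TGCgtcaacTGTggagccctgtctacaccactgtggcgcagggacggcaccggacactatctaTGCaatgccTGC
Gata4 finger 2: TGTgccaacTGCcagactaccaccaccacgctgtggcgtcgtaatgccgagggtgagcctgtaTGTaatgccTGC
Gata5 finger 2: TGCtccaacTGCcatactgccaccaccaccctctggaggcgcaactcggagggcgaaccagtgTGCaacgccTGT

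Gata4 and Gata5 were identical at 58 of the 75 bases of finger 1 (77.3%) and at 56 of those of finger 2 (74.7%). Gata4 and Gata6 shared 73.3% and 81.3% of the bases in these fingers, and Gata5 and Gata6 shared 74.7% and 69.3%. No run of 30 bases was common to the annotated transcripts of any pair of these genes, while 11 runs of 20 bases were common to Gata4 and Gata5. A read of 30 bases or more that matched 1 of these transcripts exactly therefore matched no transcript of the other GATA genes compared.

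Gata4 lies on chromosome 14 (63198922 to 63271692, minus strand) and holds 3904 bases of exon. Its counts were 116, 110, 90 and 93 in controls 1 to 4 and 47, 47, 35 and 64 in knockouts 1 to 4. After normalization these were 7.27, 8.73, 8.08 and 7.34 CPM in the controls and 2.79, 2.70, 4.11 and 3.88 CPM in the knockouts. Every knockout lay below every control, in counts as well as in normalized CPM. The means were 7.85 ± 0.687 CPM (SD, n = 4) and 3.37 ± 0.729 CPM (n = 4), so the knockouts were at 42.9% of the controls. The log2 fold change was -1.23 ± 0.26 (SE). In bulk RNA of this kind, fewer cells that express a gene and less RNA in each cell cannot be told apart.

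Gata4 did not pass the cutoffs used with edgeR's quasi-likelihood test, which were 0.05 for the adjusted p and 0.5 for the size of the log2 fold change. It passed the same cutoffs with DESeq2, with limma-voom, and with edgeR when knockout 3 was left out. These calls rest on the contrast by which the gene was chosen. Gata4 was lower in the knockouts within each set of libraries, a set being a run of label numbers: the log2 difference was -1.53 between controls 1 and 2 and knockouts 1 and 2, and -0.94 between the other libraries. Without knockout 3 the knockout mean was 3.12 ± 0.658 CPM (SD, n = 3).

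Gata5, which has its major known roles in heart and gut endoderm, lies on chromosome 2 (180325133 to 180334699, minus strand). It stood at 8.09, 6.90, 10.4 and 8.45 normalized CPM in controls 1 to 4 and at 6.59, 6.83, 1.76 and 8.01 in knockouts 1 to 4. Knockout 3, with 15 counts, was far below the other knockouts, and those overlapped the controls. The knockout mean was 5.80 ± 2.76 CPM (SD, n = 4) with knockout 3 and 7.14 ± 0.756 CPM (n = 3) without it, against 8.46 ± 1.46 CPM in the controls (n = 4). The log2 fold change was -0.53 ± 0.38 (SE) with knockout 3 and -0.25 without it, and the gene passed the cutoffs in neither case. An antisense gene, Gata5os, covers 7.87% of the Gata5 exon bases. It had between 1 and 16 counts, and in the shared bases reads of both genes cannot be told apart.

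Gata6, on the plus strand of chromosome 18, was the most abundant GATA factor. Its values were 31.0, 25.6, 32.2 and 30.7 normalized CPM in controls 1 to 4 and 28.7, 27.6, 19.7 and 22.0 in knockouts 1 to 4. The ranges overlapped, because control 2 was below knockouts 1 and 2. The means were 29.9 ± 2.92 CPM in the controls and 24.5 ± 4.36 CPM in the knockouts (SD, n = 4 each), and the log2 fold change was -0.28 ± 0.18 (SE). With plain library totals in place of TMM factors it was 0.00. Within the first set of libraries the log2 difference was 0.00 and within the second it was -0.60.

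The long noncoding RNA 1010001N08Rik overlaps Gata6 on the opposite strand and was the only annotated gene within 100 kb of it. It covers 1.82% of the Gata6 exon bases, in which reads of the 2 genes cannot be told apart. It stood at 5.77, 7.14, 6.64 and 5.92 normalized CPM in controls 1 to 4 and at 2.97, 2.58, 1.76 and 3.09 in knockouts 1 to 4. Each knockout was below each control, in contrast to Gata6 itself, whose groups overlapped. The log2 fold change of the noncoding RNA was -1.27 ± 0.29 (SE, edgeR adjusted p = 0.171). It missed the cutoffs with edgeR and passed them with DESeq2 (adjusted p = 0.00354) and limma-voom (adjusted p = 0.0407). The difference between its change and that of Gata6 was not tested.

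Zfpm1, the GATA cofactor on chromosome 8 (122282141 to 122337251, plus strand), was at 5.27, 6.98, 5.21 and 5.29 normalized CPM in controls 1 to 4. In knockouts 1 to 4 it was at 6.65, 7.46, 5.29 and 4.91. The groups overlapped throughout, with a log2 fold change of 0.10 ± 0.26 (SE), and without knockout 2 the value was -0.02. The interval of 1 SE on either side therefore held 0. The mean level was 5.69 ± 0.865 CPM in the controls and 6.08 ± 1.19 CPM in the knockouts (SD, n = 4 each).

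Onecut2 lies on the plus strand of chromosome 18 and has the longest exon sequence of the 7 genes, 13391 bases. Its counts were 797, 638, 420 and 525 in controls 1 to 4 and 307, 242, 213 and 290 in knockouts 1 to 4. The normalized values were 50, 50.6, 37.7 and 41.4 CPM in the controls and 18.2, 13.9, 25 and 17.6 CPM in the knockouts. The lowest control was above the highest knockout, which was knockout 3. The means were 44.9 ± 6.38 CPM and 18.7 ± 4.64 CPM (SD, n = 4 each), the knockouts being at 41.6% of the controls. The log2 fold change was -1.27 ± 0.21 (SE), and within the library sets the log2 differences were -1.66 and -0.91.

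Onecut2 was the 1 member past both edgeR cutoffs. Over all 13439 genes tested, 25 passed them (0.186%), 4 with lower (0.0298%) and 21 with higher (0.156%) values in the knockouts. Gata4 and Onecut2 were the 2 members with every knockout below every control, which held for 260 of the tested genes (1.93%). As the members were chosen with this contrast known, nothing is read from these counts. The call for Onecut2 was lost in 7 of the 8 fits that left out 1 library, and was kept without knockout 3.

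Onecut1 (Hnf6, chromosome 9, 74861921 to 74891781, plus strand) received no count in any library. A count of 0 allows up to 0.172 to 0.352 normalized CPM, the value of 3 counts in the libraries, and this covers counting error only. In addition, 52.78% of its exon bases are shared with the gene model Gm20649, which had no counts either and is named for this overlap, after its values were seen. Onecut3 (chromosome 10, 80494835 to 80517276, plus strand) had counts of 0, 11, 22 and 2 in controls 1 to 4 and of 2, 2, 0 and 0 in the knockouts. Controls 2 and 3 were above all knockouts, whereas control 1 had no count. Neither gene passed the filter, and no fold change is given for them.

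**Figure D1:**
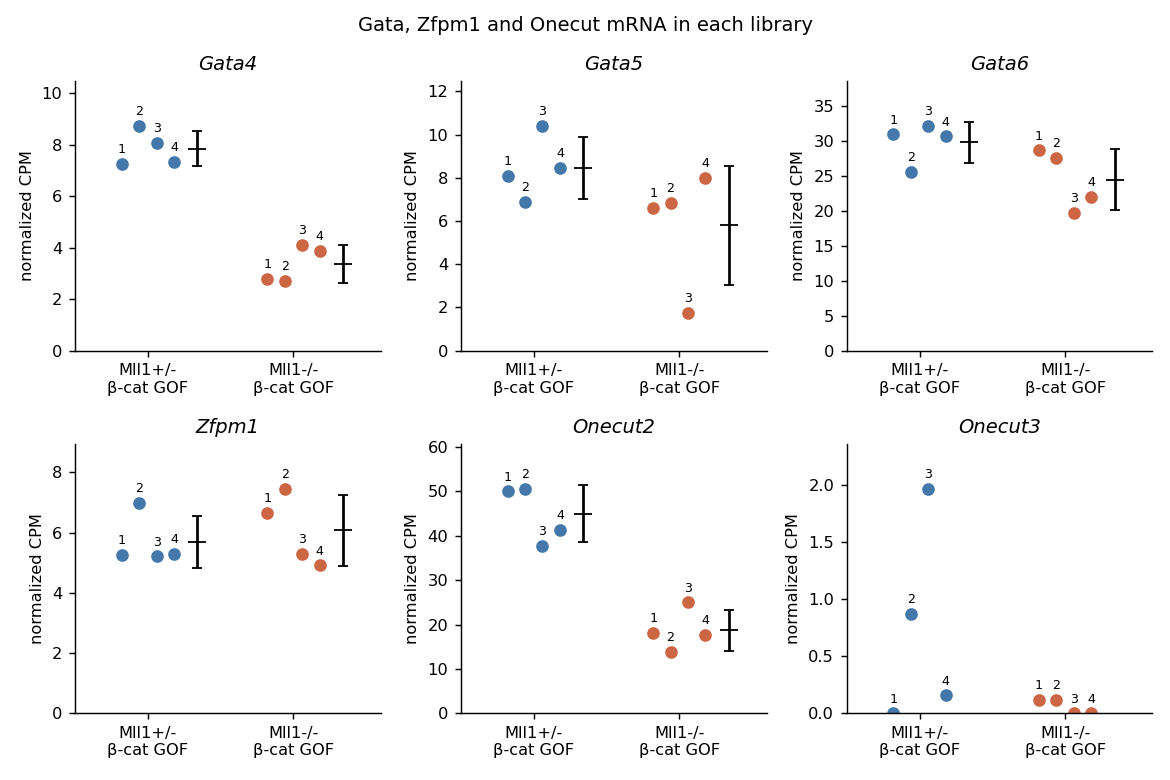
Normalized CPM (y axis) of the 6 members with counts in the 4 Mll1+/- β-cat GOF controls (blue) and the 4 Mll1-/- β-cat GOF knockouts (orange), 1 numbered point per library, with the mean and SD as a black bar except for Onecut3. Gata4 and Onecut2 do not overlap between the genotypes (7.27 to 8.73 against 2.70 to 4.11 CPM, and 37.7 to 50.6 against 13.9 to 25 CPM), whereas Gata6 and Zfpm1 do.

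**Figure D2:**
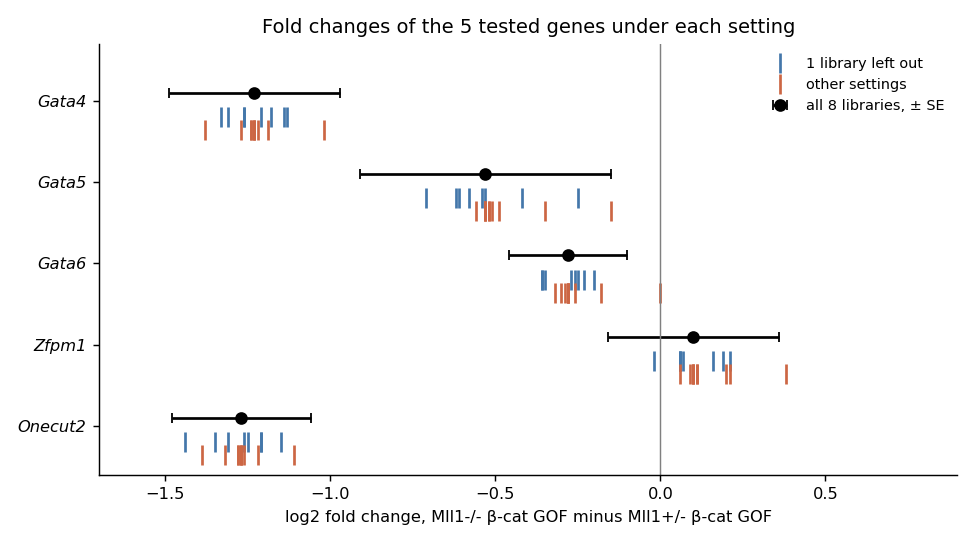
Log2 fold changes of the 5 tested members, with black points for all 8 libraries with their SE, blue ticks for fits with 1 library left out and orange ticks for other normalizations, filters and tests. Gata4 stays between -1.38 and -1.02 and Onecut2 between -1.44 and -1.11, while Zfpm1 lies on both sides of 0.

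Levels of different genes were compared per kilobase of exon, as normalized CPM per kb. Over all 8 libraries Gata6 was highest at 8.52 ± 1.40 CPM per kb (SD), above 87.2% of the tested genes. Onecut2 followed at 2.38 ± 1.12, Gata5 at 2.18 ± 0.760, Zfpm1 at 1.68 ± 0.281 and Gata4 at 1.44 ± 0.636 CPM per kb. Gata4 was above 48.9% of the tested genes on this scale, and Onecut3 was at 0.0848 CPM per kb.

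The level of Gata6 exceeded that of Onecut2 in 8 of 8 libraries, 3.59 times on average (exact paired permutation test over libraries, two-sided, p = 0.00781, adjusted over 6 neighbouring pairs 0.0234). The place of Gata6 above Onecut2 rests on the division by exon length. In normalized CPM without that division, Onecut2 was above Gata6 in each control and in knockout 3, and below it in the other knockouts. Gata4 exceeded Onecut3 in 8 of 8 libraries (exact permutation test, adjusted p = 0.0234). The other neighbours in the order were not told apart by this test, which takes the libraries of both genotypes together, with adjusted p of 0.773 for Onecut2 and Gata5, 0.403 for Gata5 and Zfpm1 and 0.403 for Zfpm1 and Gata4 by the same exact permutation test. Onecut1 had no counts, so its place below Onecut3 is no test of a difference. Onecut2 was above Gata5 in 4 of 8 libraries, namely controls 1, 2 and 4 and knockout 3. In the controls the levels were 3.36 ± 0.477 CPM per kb for Onecut2 and 2.58 ± 0.445 for Gata5 (SD, n = 4). In the knockouts they were 1.40 ± 0.346 and 1.77 ± 0.843 CPM per kb (SD, n = 4), and Zfpm1, at 1.74 CPM per kb, was above Onecut2 there. The order over all 8 libraries is therefore not the order within each genotype.

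**Figure D3:**
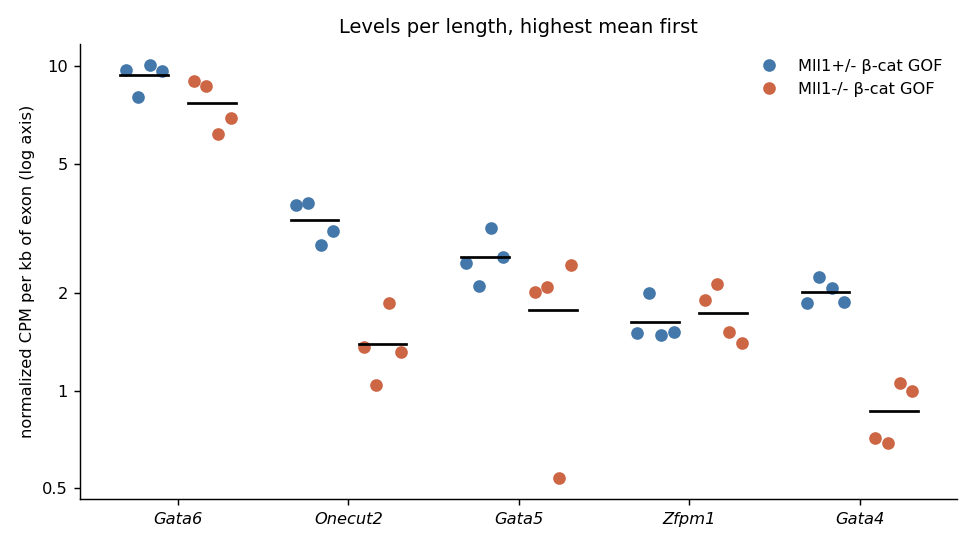
Normalized CPM per kb of exon (log axis) of the 5 tested members, ordered by their mean over all libraries, with 1 point per library and a bar at the mean of each genotype. Gata6, at 6.18 to 10.1 CPM per kb, is above the other members in each library.

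The proportions among the GATA factors were then compared within libraries, which does not depend on the scaling between them. The Gata4 level was 19.2%, 27.9%, 20.5% and 19.6% of the Gata6 level in controls 1 to 4, per kb. It was 7.94%, 7.99%, 17% and 14.5% in knockouts 1 to 4, so that the groups did not overlap (21.8 ± 4.10% against 11.9 ± 4.62%, SD, n = 4 each). Ratios of Gata4 and of Onecut2 hold the difference that was known when the genes were chosen. How often ratios of other genes do not overlap was not computed. The Gata5 level was 25.4%, 26.3%, 31.5% and 26.8% of the Gata6 level in the controls and 22.4%, 24.1%, 8.70% and 35.5% in the knockouts, with overlap. The ratio of Gata4 to its cofactor Zfpm1 was 124%, 112%, 139% and 125% in the controls and 37.7%, 32.4%, 69.8% and 70.9% in the knockouts. Zfpm1 was thus below Gata4 in each control and above it in each knockout, per kb, so the order of this pair given above is that of the knockouts and is the opposite in the controls. The ratio of Onecut2 to Gata6 was 38.4%, 47.1%, 27.9% and 32.2% in the controls and 15.1%, 12.0%, 30.2% and 19.1% in the knockouts, and knockout 3 lay within the range of the controls.

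Likeness of pattern was measured as Pearson's r of log2(CPM + 1) over the 8 libraries among all tested genes, as a description. The points hold both genotypes and include knockout 3. For Gata4 the gene most alike was Onecut2 (r = 0.956, Spearman's rho 0.881, r = 0.959 without knockout 3), followed by the chaperone Hspa8 (r = 0.952) and by Casp4 (r = 0.952). For Onecut2 the order was Pou4f1 (r = 0.966), Hspa8 (r = 0.958) and Gata4 (r = 0.956). Hspa8 was itself among the genes past both cutoffs, at 55.5 CPM on average in the controls and 19.0 in the knockouts.

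For Gata6 the 3 genes most alike were Zfp942, Dlat and Dolk (r between 0.975 and 0.978). For Gata5 they were Zfp994, Slc30a4 and Steap2, whose r fell to between 0.790 and 0.909 without knockout 3. For Zfpm1 they were Sdhaf4, Gm14173 and Rmdn1 (r between 0.930 and 0.952). Among the members, Gata5 and Gata6 had an r of 0.77 that was 0.42 without knockout 3, and Gata4 and Gata6 one of 0.39.

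Markers of other cell types of the crypt are set beside Gata4 and Onecut2, as Onecut2 is also known from endocrine cells. The summed level of 10 enteroendocrine markers was 230, 322, 675 and 481 normalized CPM in controls 1 to 4 and 221, 51.8, 208 and 194 in knockouts 1 to 4. None of the 10 was at 0 in all libraries, and all 10 had a fold change below 0, with a median log2 fold change of -1.61 against 0.01 over all tested genes. With edgeR 0 of the 10 were past the cutoffs and 6 had an unadjusted p under 0.05 (6.88% of all tested genes had). The sums of the controls and of the knockouts did not overlap, as for Gata4 and Onecut2.

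Sums of 8 enterocyte markers ranged from 105 to 290 CPM in the controls and from 30.3 to 201 in the knockouts, and those of 7 tuft markers from 181 to 638 and from 108 to 418. Those of 6 stem cell markers ranged from 703 to 1520 and from 273 to 952. Immune markers summed to 159 to 477 and 177 to 631 CPM. Lyz2, named for this overlap, is on the immune list and on the Paneth list, so the immune sum does not stand for immune cells alone. Each of these sums overlapped between the genotypes. Knockout 3 was the lowest knockout for enterocyte, tuft and stem cell markers and the highest for immune markers. For tuft markers it lay beside knockout 4 (108 and 114), and knockout 1 was far above them at 418. Without knockout 3 the knockouts were at 145 to 201 for enterocyte, 114 to 418 for tuft, 634 to 952 for stem cell and 177 to 236 CPM for immune markers. With edgeR 0 genes of these lists were past the cutoffs, while 3 of 5 tested enterocyte markers and 4 of 6 stem cell markers had an unadjusted p under 0.05. Such a p was found for 0 of 6 tested tuft markers, 0 of 3 tested immune markers and 6.88% of all tested genes. The median log2 fold changes were -0.77 for enterocyte, -0.88 for tuft and -0.44 for stem cell markers. Sums of 8 goblet markers ranged from 9930 to 22500 CPM in the controls and from 9000 to 24200 in the knockouts, the highest being knockout 3. Their median log2 fold change was 0.06, with 4 above and 4 below 0. With edgeR 0 of the 8 passed the cutoffs and 2 had an unadjusted p under 0.05. Of the immune markers, 4 of 10 had no more than 3 counts in any library, and stromal and endothelial markers summed to between 3.63 and 6.93 CPM over all libraries. The part of these cells in the changes of Gata4 and Onecut2 was not tested.

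**Figure D4:**
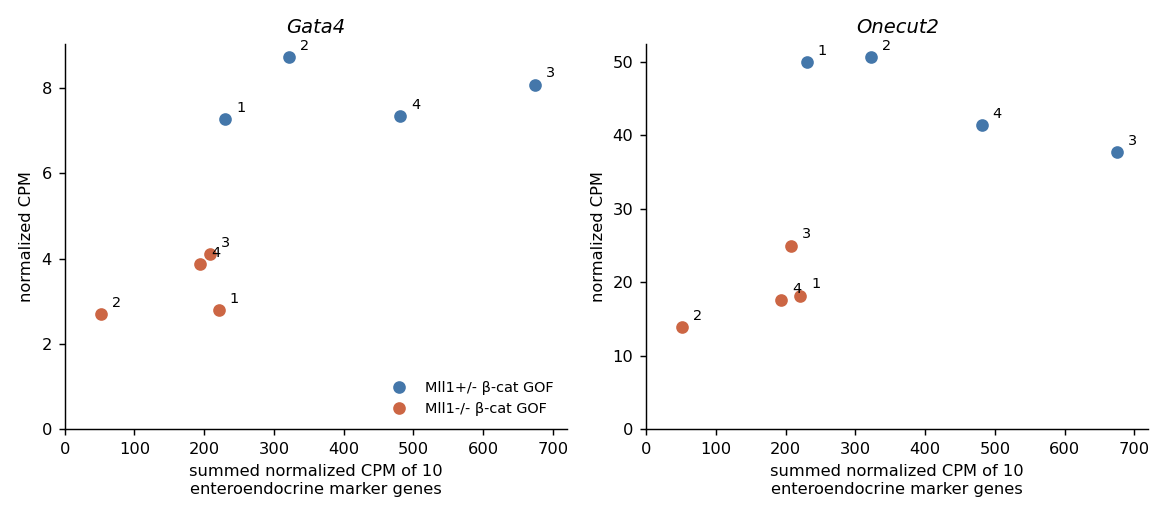
Normalized CPM of Gata4 (left) and Onecut2 (right) against the summed normalized CPM of 10 enteroendocrine markers, with 1 numbered point per library in the controls (blue) and knockouts (orange). Neither the values on the y axes nor the marker sums (230 to 675 in the controls and 51.8 to 221 in the knockouts) overlap between the genotypes. On the x axes control 1 (230) and knockout 1 (221) lie next to each other.

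The other genes of the pathway were taken from 8 lists of relatives, partners and known targets, with 75 genes in all, of which 56 were tested. With edgeR 0 of the 56 passed the cutoffs and 8 had an unadjusted p under 0.05 (14.3%), while over all tested genes 0.186% passed the cutoffs and 6.88% had such a p. DESeq2 and limma-voom, which called 1.03% and 0.707% of all tested genes at the same cutoffs, each called 3 of the 56, with the forkhead factor Foxa1 lower in the knockouts and the homeobox gene Prox1 and the Ras-MAPK inhibitor Spred1 higher.

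Among the relatives of the members, Gata3, the GATA factor of T helper cells, had 5 to 15 counts in each library and was under the filter. Gata1 and Zglp1, named after their values were seen, had no counts in any library. Gatad1 was tested and overlapped between the groups (20.0 to 22.1 CPM against 14.3 to 21.7, the lowest being knockout 3). The cut homeobox genes Cux1 and Cux2 were tested and overlapped too, with Cux1 at 12.6 ± 3.27 CPM in the controls and 11.5 ± 1.46 CPM in the knockouts (SD, n = 4 each).

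All 15 genes of the corepressors that Zfpm1 recruits, NuRD and CtBP, were tested, and their median log2 fold change was 0.19. The helicase Chd4 was at 41.5 ± 3.70 CPM in controls and 43.2 ± 1.95 CPM in knockouts, and the histone chaperone Rbbp7 at 37.6 ± 4.12 and 47.6 ± 3.53. Both overlapped between the groups. For 11 of these genes the fold change was above 0 and for 4 below 0, and 1 of 15 had an unadjusted p under 0.05 with edgeR, against 6.88% of all tested genes.

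Of 13 genes listed as factors of intestinal identity, 11 were tested, and 9 of them had fold changes below 0 (median log2 fold change -0.50). Foxa1 was at 27.6, 24.6, 24.4 and 29.8 CPM in controls 1 to 4 and at 17, 13.8, 16.2 and 15.7 in knockouts 1 to 4. These groups did not overlap, as in 4.52% of all tested genes in either direction, and the log2 fold change was -0.76 ± 0.17 (SE, edgeR adjusted p = 0.15). Hnf4a, a nuclear receptor of enterocyte genes, was at 42.8 ± 4.94 CPM and 30.3 ± 6.90 CPM (SD, n = 4 each), with overlap. Prox1 was the member of the list with the largest fold change: it was at 15.6, 19.2, 27.3 and 14.7 CPM in the controls and at 122, 112, 24.3 and 73.4 in the knockouts (edgeR adjusted p = 0.101). Knockout 3 was within the control range for Prox1, and the other knockouts were above it.

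Genes known to depend on the position along the small intestine were read because Gata4 is a factor of the proximal part. Of 12 genes of the proximal part 9 were tested, 6 with fold changes below 0 and 3 above (median log2 fold change -0.25). With edgeR 0 of them passed the cutoffs and 2 had an unadjusted p under 0.05, against 6.88% of all tested genes. These were Apoc3 and Mttp, with log2 fold changes of -1.93 ± 0.73 and -0.74 ± 0.29 (SE), and both overlapped between the groups. The fatty acid binding protein Fabp1 was at 218, 186, 169 and 26.2 CPM in the controls and at 115, 123, 9.16 and 116 in the knockouts. The retinol carrier Rbp2 ranged from 5.52 to 13.6 CPM in the controls and from 0.804 to 44.0 in the knockouts, where knockout 3 was highest and the next was at 18.4. Lct, the lactase gene of mature enterocytes, had at most 5 counts in any library, was under the filter and is named after its values were seen.

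Of 8 genes of the distal part, 2 were tested. The ileal bile acid binding protein Fabp6 had 2, 0, 10 and 158 counts in controls 1 to 4 and 14, 41, 0 and 1251 in knockouts 1 to 4. Control 4 and knockout 4 held most of these counts. Slc10a2, the ileal bile acid transporter, had no count in any control, and its counts in the knockouts were 14, 3, 0 and 65. The gene was under the filter and is named here after its values were seen, as is Amn. Amn, a subunit of the ileal vitamin B12 receptor, went the other way, with 29, 18, 4 and 8 counts in the controls and 1, 9, 0 and 17 in the knockouts. The bile acid receptor gene Nr1h4, the other tested gene, was level at 2.40 ± 1.10 and 2.39 ± 1.33 CPM (SD, n = 4 each), and the transporter subunit Slc51a was mixed, at 0.179 to 1.75 and 0 to 3.40 CPM. Of the 8 distal genes, 6 had a higher and 2 a lower mean in the knockouts, and without knockout 4 these were 3 and 5. The share of ileal cells in each library was not tested as a source of these values.

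Both Slc10a2 and Lct have been studied as GATA targets, so their promoters were searched for the GATA motifs AGATAA and TGATAA on both strands in the 250 bases before the start (RefSeq, GRCm38.p6). A match was found in 16.6% of 32851 promoters of that length, in 2 of 9 proximal genes with an entry and in 2 of 7 distal genes with an entry. For 3 of the 7 members a promoter was given, and none of these held either motif. In the sequences below, 5′ to 3′ along the gene, capitals mark the matches: Slc10a2 at chr8:5105288-5105537 and Lct at chr1:128328319-128328568, both on the minus strand.
Slc10a2: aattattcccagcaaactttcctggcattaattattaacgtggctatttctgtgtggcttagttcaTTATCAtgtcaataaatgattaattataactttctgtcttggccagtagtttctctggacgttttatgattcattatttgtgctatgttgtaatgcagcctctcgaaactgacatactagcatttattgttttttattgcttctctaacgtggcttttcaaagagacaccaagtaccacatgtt
Lct: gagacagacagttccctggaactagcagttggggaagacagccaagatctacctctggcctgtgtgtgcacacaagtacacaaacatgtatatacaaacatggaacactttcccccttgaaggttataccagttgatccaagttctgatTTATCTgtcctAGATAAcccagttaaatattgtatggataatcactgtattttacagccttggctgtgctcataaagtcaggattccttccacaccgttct

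Slc10a2 held 1 match on the opposite strand, with its first letter 184 bases before the start. Lct held 2 matches, with their first letters 101 and 90 bases before the start. These are matches of letters, and no binding was measured in this series.

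Of 8 feedback genes of the MAPK pathway, 7 were tested and 6 had fold changes above 0 (median log2 fold change 0.38). Spred1 was at 1.94, 2.06, 2.69 and 2.68 CPM in controls 1 to 4 and at 11, 9.02, 4.82 and 4.37 in knockouts 1 to 4, with every knockout above every control, which held for 2.59% of the tested genes (edgeR adjusted p = 0.161). Spry2 and Dusp6 overlapped between the groups. Of the 9 transcription factors of secretory lineages all were tested and 4 had fold changes above 0. Atoh1, which sets the secretory fate, was at 38.5 ± 9.12 CPM in controls and 43.6 ± 20.8 CPM in knockouts, but at 33.4 ± 5.45 CPM (n = 3) without knockout 3, below the mean of the controls. Sox9, which Paneth cells need, was at 154 ± 19.9 and 143 ± 8.91 (SD, n = 4 each). Neurog3, the factor of endocrine fate, was at 1.25 to 3.71 CPM in the controls and 0 to 1.03 in the knockouts, the 0 being that of knockout 3.

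**Figure D5:**
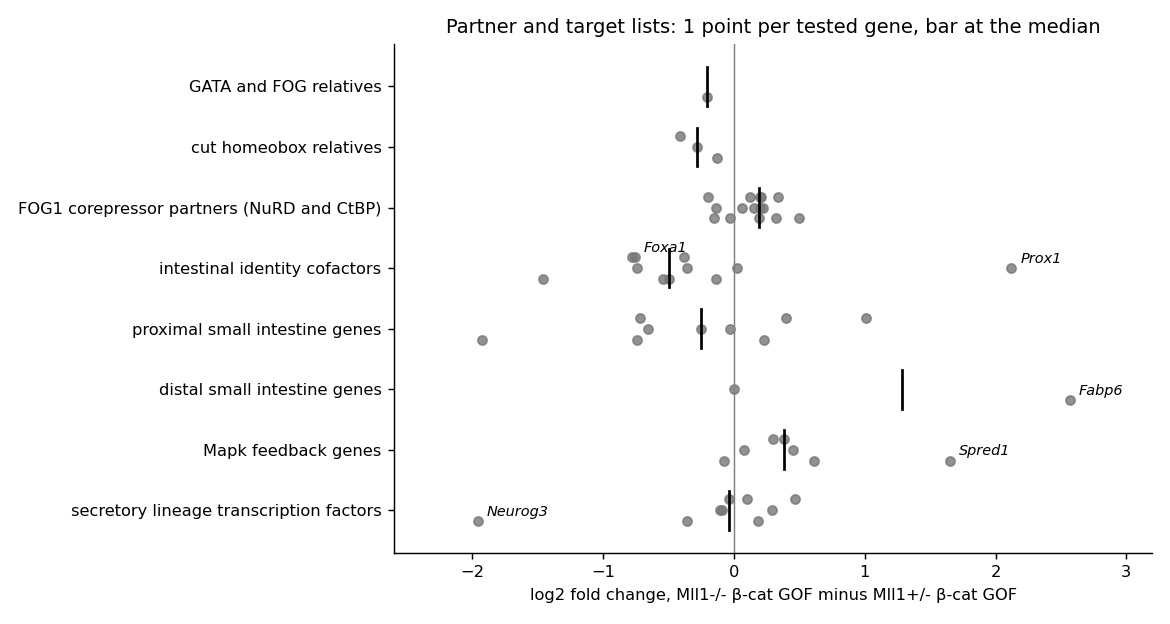
Log2 fold changes of the tested genes of 8 lists of relatives, partners and known targets, 1 point per gene, with a bar at the median of each list. With edgeR 0 of the 56 genes passed the cutoffs, and the medians lie between -0.50 and 0.38 except that of the 2 distal genes at 1.28.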

How the data were processed

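RNA of 8 libraries (4 per genotype) was made with Smart-seq2, which copies polyadenylated RNA and amplifies it by PCR. The authors aligned reads to mm10 with GSNAP and counted them on Ensembl genes with featureCounts, and the deposited values are raw counts without normalization. PCR copies were counted separately. The 92 spike-in rows (at most 11 counts per library) were left out. Genotypes were taken from the sample labels.

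From the counts, TMM factors, normalized CPM and quasi-likelihood fits were computed with edgeR 4.0.16 in R 4.3.3 for 13439 genes past filterByExpr (minimum count 10, minimum total 15), with Benjamini-Hochberg adjustment over all of them. DESeq2 1.42.0 and limma 3.58.1 were alternatives. The SE was approximated as the size of the log2 fold change over the square root of F, and the common coefficient of biological variation was 0.376. The mouse numbers in the labels do not show whether the libraries are independent in every case, since 1 number stands on a library of each genotype, so p-values measure the spread between these libraries. Knockouts 1 and 2 were the closest pair of libraries (chi-square of counts per degree of freedom 10.78, against 31.7 to 170.65 for the other pairs); PCR copies inflate this measure, so it does not show by itself that libraries are independent.

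The members and lists were chosen with earlier results of these data known. Genes named are the members, Kmt2a, genes within 100 kb of a tested member, the 3 genes most like each tested member, list genes past the cutoffs and, per list, up to 4 by level and up to 4 by fold change; others are marked. Values of some list genes are not given here, although the list counts include them. The functions were tested on simulated data.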

Additional observations from a re-analysis of the deposited data

Results flagged for a closer look

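Normalized CPM of 35 genes named in the text was examined in each genotype for a library whose gap to its nearest neighbour took over most of the range of the group of 4 (Dixon's 95% criterion). Among these 70 groups 4 met it, and chance gives about 1 in 20, or 3.5. Zfpm1 in the controls met it with a gap of 0.953 of the range, with control 2 at 6.98 CPM and the other controls at 5.21 to 5.29. Fabp1 in the knockouts met it at 0.930, with knockout 3 at 9.16 CPM and the other knockouts at 115 to 123. Fabp6 met it in the controls at 0.928, with control 4 at 12.5 CPM and the other controls at 0 to 0.897. Fabp6 in the knockouts met it at 0.969, with knockout 4 at 75.9 CPM and the other knockouts at 0 to 2.35. The causes were not tested.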

How the results depend on the processing

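The 25 genes past both edgeR cutoffs became 290 without a filter, 13 with at least 10 counts in every library, 138 with DESeq2's Wald test, 95 with limma-voom and quality weights, and 15 with plain library totals, a setting chosen after seeing the data. With 1 library left out they were 10 to 152, the highest without knockout 3, and 11 without control 1, 12 without control 2, 10 without control 3, 15 without control 4 and 11 without knockout 2. The pathway list genes past both cutoffs rose from 0 to 3 without a filter, with DESeq2 and with limma-voom, and were 0 to 3 with 1 library left out, the 3 without knockout 3. With plain totals the log2 fold change was 0.00 for Gata6 and 0.38 for Zfpm1. The cause was not tested for these. Of 137 recomputed values, 120 stayed within 1 SD or within 1.5 times of the original. This measure is wide and takes no account of lost calls of a member. The pooled SD of Gata5 in log2 CPM, 0.736, was larger than the size of its log2 fold change (-0.53). The order of levels was judged only by the number of neighbours told apart.

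Gata4 passed the cutoffs in 3 of 18 alternatives and Onecut2 in 9 of 18. Onecut2 lost its call with the GC offset, with plain totals and in 7 of 8 fits with 1 library left out. The number of neighbouring levels told apart, 2, was the same in each alternative, but the neighbouring pairs were not. Onecut2 was first without division by length, so Gata6 above Onecut2 did not hold there. Gata5 was above Onecut2 without control 2. No paired analysis was possible because the genotypes share only 1 animal number, on control 4 and knockout 4. With the library set as a block 24 genes passed. Counts as low as those of Onecut3 limit what can be seen.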
